A study of Solenopsis invicta with 4 samples.

Results

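In Solenopsis invicta, the red imported fire ant, the proteasome and ubiquitin system is represented in the deposited tables by 52 assembled contigs from 47 genes, out of 9001 contigs listed in all. A contig was taken as a member when its best protein description contained proteasom, ubiquitin, cullin, F-box, SUMO or NEDD8, in any case, and its KEGG or transcript match was to the fire ant. RNA came from whole bodies of wild-type adult medium workers kept for 24 h at 10, 20 or 40 °C, and from workers kept for 24 h at 30 °C, which the labels name as the control. The colonies had been reared at 25 °C, and the labels do not say how many ants or colonies went into a library. Each temperature had 1 library, so differences between temperatures have no replicate check and were not tested, and each of them compares 2 libraries.

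Ubiquitin is a small protein that is joined to other proteins in a relay of an activating enzyme (E1), a conjugating enzyme (E2) and a ligase (E3), the last of which chooses the substrate. Proteins that carry ubiquitin chains are commonly unfolded and cut up by the proteasome, a barrel-shaped 20S core capped by a 19S regulatory particle, while deubiquitinases take the ubiquitin off again. Cullins are scaffolds that hold a RING protein and a substrate receptor such as an F-box protein, and SUMO and NEDD8 are relatives of ubiquitin with enzymes of their own. The system is known in many animals for clearing proteins that heat has damaged, and polyubiquitin genes are heat-inducible in many organisms.

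By role, the 52 members were 1 contig of a 20S core subunit, 5 of the 19S particle, 1 of a proteasome inhibitor, 2 of a ubiquitin precursor, 1 E1-type enzyme, 6 E2 contigs, 3 cullins, 3 F-box proteins, 21 E3 ligases, 5 deubiquitinases, 2 contigs of the SUMO and NEDD8 enzymes and 2 other ubiquitin-like proteins. A second annotation used the same vocabulary for 51 of the 52, and 42 had a Pfam domain hit. The exception was the contig described as E3 ligase bre1, which the ant transcript set calls myb-like protein X and whose Pfam hit is CCDC66, so its name is uncertain. The contig described as E3 SUMO-protein ligase EGR2-like carries the Pfam hit CAF1A and a UniProt match to a chromatin assembly factor subunit, which go against that name.

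The estimated read counts of the authors were scaled to CPM, the number of reads relative to a scaled library size, with library sizes between 23204029 (20 °C) and 43393168 (40 °C), so that 1 read was worth between 0.0230 and 0.0431 CPM. A fold is a ratio of CPM, and its 95% interval is an exact conditional binomial interval that covers counting error only. The tables hold contigs that passed the authors' raw p limit of 0.05, and every listed member therefore had to differ from 30 °C. By the authors' values, the smallest fold of any listed contig was 2.36 at 10 °C, 2.36 at 20 °C and 2.35 at 40 °C. Every listed contig thus passes 2-fold before the pseudocount of 1 CPM used below. Counts past 2-fold hence show direction and level, not a further selection. With no ratio close to equality, a median mostly shows which direction holds the majority. A contig that is absent from a table is not called unchanged. In whole-body RNA, fewer cells of a type and less RNA per cell cannot be told apart. The FPKM values of the authors, which are levels per length of contig, use another scaling. It shifts log2 ratios by -0.02 (10 °C), -0.64 (20 °C) and 0.51 (40 °C). These shifts are smaller than the smallest listed folds, so no listed contig could change direction with that scaling, and none did.

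At 40 °C against 30 °C, 25 of the 28 listed members were higher and 3 were lower. Of all 4067 contigs listed at 40 °C, 46.7% were higher, and of those with a protein name and a fire ant match 59.0% were. Among the 23 members with a mean of 1 CPM or more, 21 passed 2-fold upwards and 1 downwards, on a log2 scale with a pseudocount of 1 CPM. Upwards, 40.1% of all contigs at that level and 56.2% of the named ones passed it, and downwards 43.4% and 31.7%. By the authors' deposited table, 3 members, all higher, had an adjusted p under 0.05, beside 9.98% of all listed contigs that were higher with such a p and 9.20% that were lower. The median log2 ratio of the 23 members was 1.52, beside 1.11 for the named contigs and -0.82 for all contigs at that level. With no limit on level the medians were 1.49 for members, 0.59 for named contigs and -0.38 for all. Thus ubiquitin itself, both E2 enzymes, the cullin, all 3 F-box proteins and 11 of 12 E3 ligases listed at 40 °C were higher there.

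**Figure D1:**
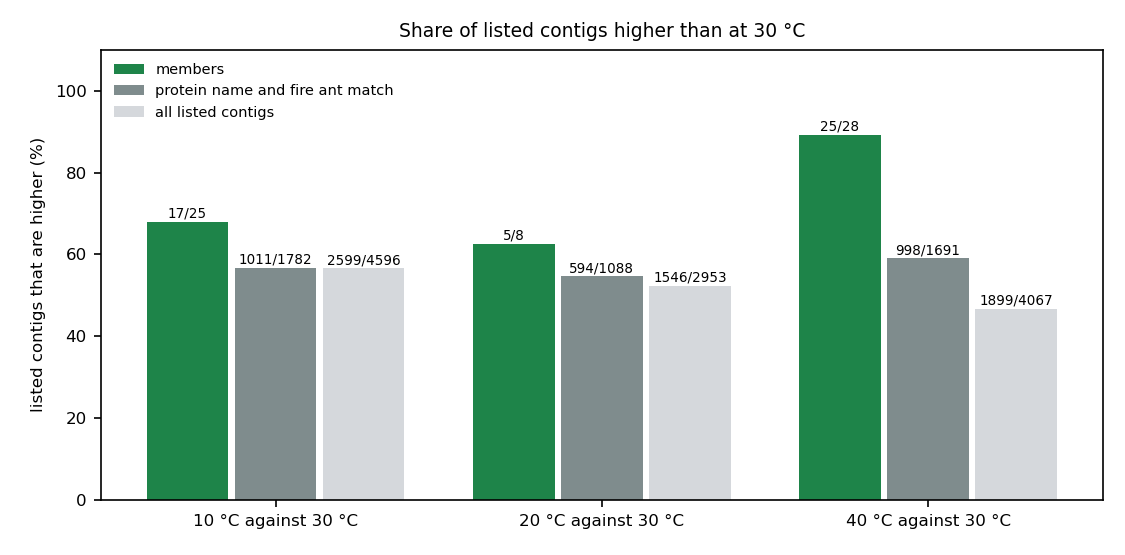
Share of listed contigs that were higher than at 30 °C, in percent, for the members, for contigs with a protein name and a fire ant match, and for all listed contigs, with the counts above each bar. The member bar at 40 °C, 25 of 28, stands highest, while the bars of 10 °C and 20 °C lie nearer to those of the other contigs.

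Ubiquitin precursors, which are made as fusions or head-to-tail repeats and cut into single ubiquitins, had the highest levels per length of the members listed at 40 °C. By CPM they did not lead, with 62.3 and 24.1 CPM at 40 °C, against 123 CPM for the E3 ligase HERC4. Their lead thus rests on the division by contig length. A contig described as ubiquitin had 2702 reads and 1626 FPKM at 40 °C, against 659 reads and 286 FPKM at 30 °C. A second had 1044 reads and 479.7 FPKM at 40 °C, against 251 reads and 84.7 FPKM at 30 °C. The Pfam hit of the first is ubiquitin, and that of the second is DUF4139. Both match the same polyubiquitin-A-like gene, LOC105199012, so they may share reads and are not 2 observations. Their folds were alike, at 3.62 (3.32 to 3.94) and 3.67 (3.19 to 4.23). Neither contig is in the tables for 10 °C and 20 °C. Their gene overlaps another gene in the RefSeq annotation.

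Both E2 enzymes listed at 40 °C belong to the E2 Q branch, whose members carry a ubiquitin-conjugating fold at the end of a longer protein. Ubiquitin-conjugating enzyme E2 Q2 had 1589 reads at 40 °C, against 471 at 30 °C, a fold of 2.98 (2.68 to 3.31). E2Q-like protein 1 had 136 reads at 40 °C, against 27 at 30 °C, a fold of 4.44 (2.92 to 6.99). Per length, E2 Q2 was the more abundant of the pair at both temperatures, with 16.4 FPKM at 40 °C and 3.87 FPKM at 30 °C, while E2Q-like protein 1 had 3.81 FPKM at 40 °C and 0.60 FPKM at 30 °C.

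Cullin-1, the scaffold of the SCF ligases that use F-box proteins as receptors, had 1316 reads and 30.3 CPM at 40 °C, against 307 reads and 8.02 CPM at 30 °C. Its fold was 3.78 (3.34 to 4.30). All 3 F-box proteins listed at 40 °C were higher there too, by a narrow range of folds. F-box only protein 11, the substrate receptor known in human cells for a beta-helix domain, had 1090 reads at 40 °C, against 312 at 30 °C, a fold of 3.08 (2.71 to 3.51). The Pfam hit of this contig is that beta helix. F-box only protein 28 was named for contigs of different genes. The contig of LOC105195461 had 1766 reads at 40 °C, against 480 at 30 °C, a fold of 3.25 (2.93 to 3.60). The contig of LOC105201974 had 1079 reads at 40 °C, against 306 at 30 °C, a fold of 3.11 (2.74 to 3.54). Contigs that only other annotations name as F-box proteins numbered 5 at 10 °C, 4 of them higher there and 1 lower. At 20 °C they numbered 4, 3 of them higher there and 1 lower. At 40 °C they numbered 2, both higher there, with 13 reads against 1 and 64 reads against 20 at 30 °C. Both of these averaged below 1 CPM. Among all listed contigs, 56.5% were higher at 10 °C, 52.4% at 20 °C and 46.7% at 40 °C.

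E3 ligases were the largest class, with 12 contigs from 12 genes at 40 °C. SMURF2, a HECT ligase known in mammals for acting on the TGF-beta pathway, had 760 reads at 40 °C, against 183 at 30 °C, a fold of 3.66 (3.11 to 4.33). UBR3-like, of the UBR family that in other members reads the first residues of a substrate, had 874 reads at 40 °C, against 218 at 30 °C, a fold of 3.54 (3.05 to 4.12). Both were higher at 40 °C with intervals above 3-fold.

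Among ligases outside the naming rule, chosen after their values were seen, HERC4 was the most abundant per length at 40 °C. It had 5356 reads and 48.2 FPKM at 40 °C, against 1482 reads and 10.6 FPKM at 30 °C, a fold of 3.19 (3.01 to 3.38). Nedd-4, of the HECT ligases with WW domains, had 1391 reads at 40 °C, against 511 at 30 °C, and its fold of 2.40 (2.17 to 2.66) was the smallest of the higher members. RNF25, UBR3, E3B and makorin-1 were also higher, with folds from 2.97 to 5.20. The only ligase listed as lower at 40 °C was a contig described as HUWE1-like, with 385 reads and 22.5 FPKM at 40 °C, against 1020 reads and 47.0 FPKM at 30 °C. It was 3.0-fold lower (2.67 to 3.39), or 2.09-fold on the FPKM scale. HUWE1 is a large HECT ligase in human cells, and this contig's ant transcript match is a non-coding RNA, LOC105206117, so the assignment to a ligase gene is uncertain. HERC4 and the HUWE1-like contig thus stood in opposite order per length in the 2 libraries.

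A HECT domain, which takes the ubiquitin onto itself before passing it on, was the Pfam hit of 8 members. At 40 °C 7 of them were listed. Of these, 6 were higher at 40 °C, among them SMURF2, HERC4, Nedd-4 and E3B, and the HUWE1-like contig was lower. Among all contigs listed at 40 °C, 46.7% were higher, and among the named ones 59.0%.

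**Figure D2:**
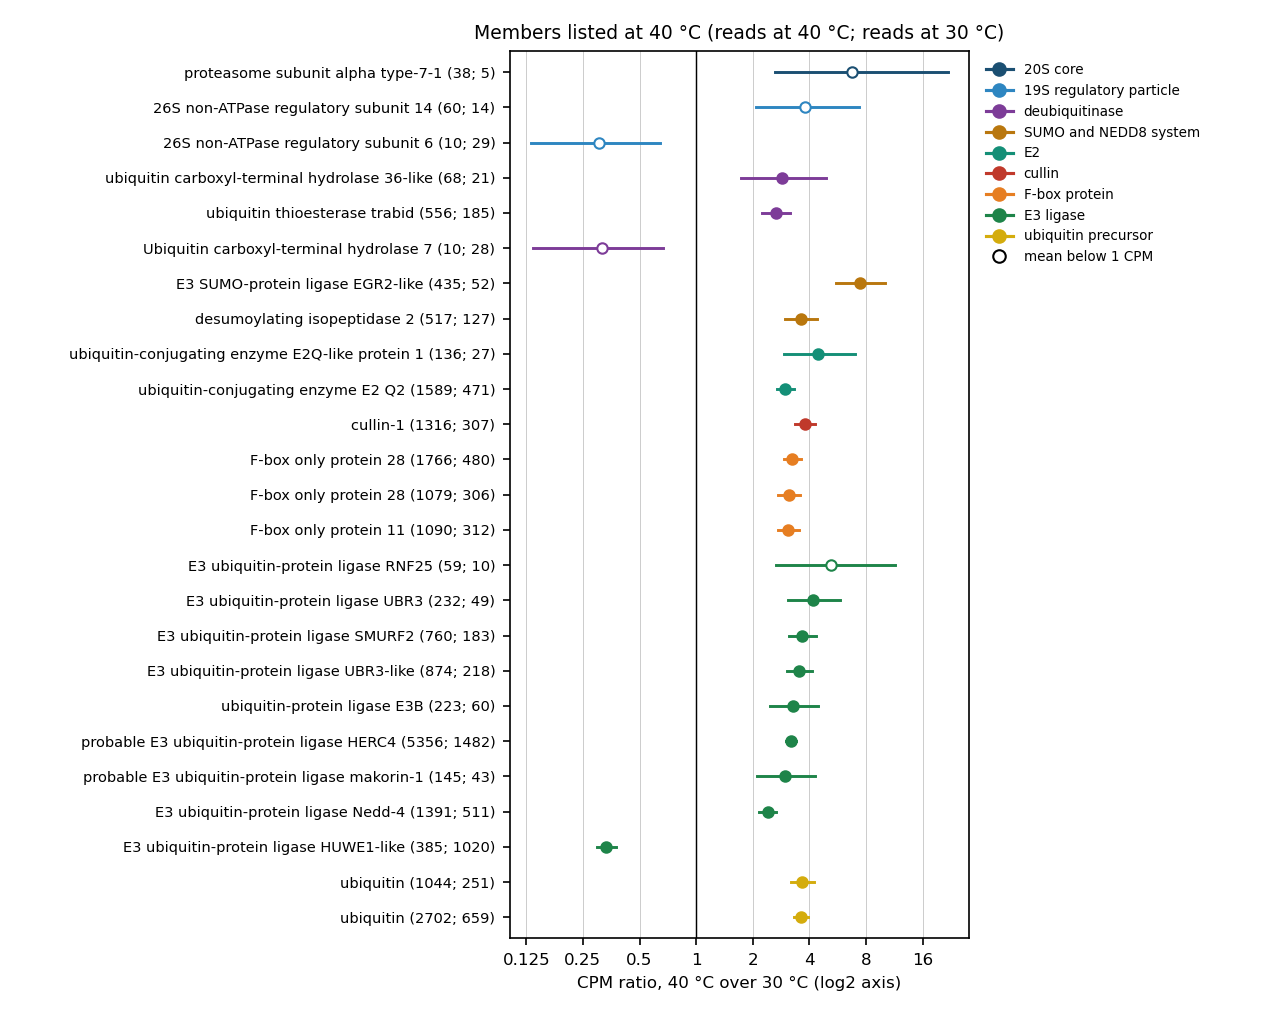
CPM ratio of 40 °C over 30 °C on a log2 axis for 25 of the 28 members listed at 40 °C, coloured by role, with the reads at 40 °C and at 30 °C beside each name. Points are the ratios, lines their 95% counting intervals, and open circles members averaging below 1 CPM. The 22 members right of 1 include all listed cullins, F-box proteins, E2 enzymes and ubiquitin contigs.

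Proteasome subunits were few and thinly covered at 40 °C, in contrast to the ligases. Proteasome subunit alpha type-7-1, of the outer rings of the 20S core, had 38 reads at 40 °C, against 5 at 30 °C, a fold of 6.70 (2.63 to 21.8). The 19S subunit 14, the deubiquitinase that strips chains from arriving substrates, had 60 reads at 40 °C, against 14 at 30 °C, a fold of 3.78 (2.09 to 7.33). In the other direction, the 19S subunit 6, a structural part of the lid, had 10 reads at 40 °C, against 29 at 30 °C. It was 3.29-fold lower (1.56 to 7.56), or 2.31-fold on the FPKM scale. All 3 averaged below 1 CPM and none entered the counts of 2-fold changes. By level they lay at or under 1.60 FPKM in both libraries, below most other members.

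Deubiquitinases and the SUMO enzymes completed the members listed at 40 °C. Trabid, an OTU-family enzyme that prefers atypical ubiquitin chains, had 556 reads at 40 °C, against 185 at 30 °C, a fold of 2.65 (2.24 to 3.15). Ubiquitin carboxyl-terminal hydrolase 36-like, named for a nucleolar enzyme in flies and humans, had 68 reads at 40 °C, against 21 at 30 °C, a fold of 2.86 (1.73 to 4.91). Ubiquitin carboxyl-terminal hydrolase 7, known in human cells for acting on p53 and its ligase, was named after its values were seen as the member of this class that was lower at 40 °C. It had 10 reads there, against 28 at 30 °C, and was 3.17-fold lower (1.5 to 7.32), or 2.2-fold on the FPKM scale. Desumoylating isopeptidase 2, of a family that takes SUMO off proteins in mammals, had 517 reads at 40 °C, against 127 at 30 °C, a fold of 3.59 (2.95 to 4.40). The EGR2-like contig had 435 reads at 40 °C, against 52 at 30 °C, and its fold of 7.38 (5.53 to 10.0) was the largest among the members listed at 40 °C, with the doubt about its name given above.

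**Figure D3:**
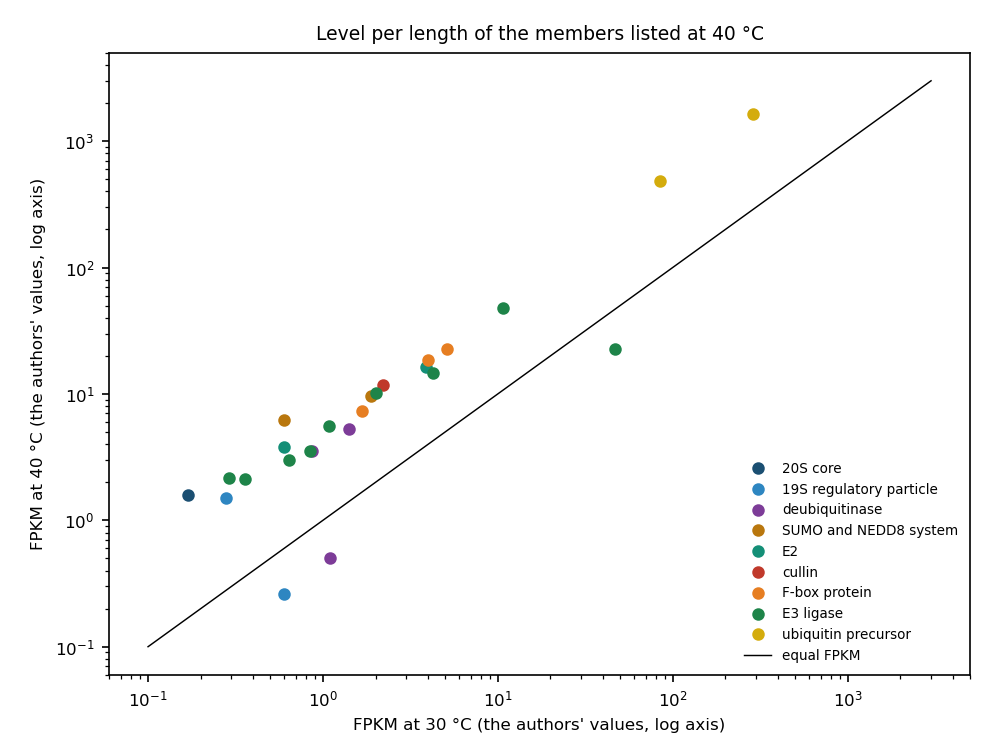
Level per length, in the FPKM of the authors, of 25 of the 28 members listed at 40 °C, with 40 °C on the vertical and 30 °C on the horizontal axis, both logarithmic, coloured by role. Points above the line of equal FPKM were higher at 40 °C. The 2 ubiquitin contigs, at 1626 and 479.7 FPKM at 40 °C, lie far above all others on this scale, but they did not lead by CPM.

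At 10 °C against 30 °C the listed members were split more evenly. Of 25 members from 22 genes, 17 were higher and 8 were lower, beside 56.5% higher among all 4596 contigs listed at 10 °C and 56.7% among the named ones. Of the 20 with a mean of 1 CPM or more, 11 passed 2-fold upwards and 7 downwards. At that level 36.2% of all contigs and 40.6% of named contigs passed 2-fold upwards, and 47.0% and 45.6% passed it downwards. The median log2 ratio of the 20 members was 1.15, against -0.93 for all contigs and -0.85 for named ones at that level. With no limit on level the medians were 0.95 for members, 0.47 for all contigs and 0.51 for named ones, all in the same direction. By level, of the 9 members with a mean of 10 CPM or more, 4 were higher at 10 °C and 5 were lower, while of the 11 between 1 and 10 CPM, 9 were higher and 2 were lower. Over all 350 contigs averaging at least 10 CPM, the shares past 2-fold were 32.0% higher and 68.0% lower at 10 °C. By the authors' deposited table, 8 higher and 1 lower member had an adjusted p under 0.05, beside 20.2% and 10.7% of all contigs listed.

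All proteasome members listed at 10 °C were higher there. The 19S subunit 2-like, named for a large scaffold subunit of the 19S base, was covered by contigs of 1 gene, LOC105197079. The contig with more reads had 173 at 10 °C, against 17 at 30 °C, and a ratio with an interval of 7.87 to 22.8. The other had 68 reads at 10 °C, against 10 at 30 °C, a fold of 8.67 (4.44 to 18.9). That gene overlaps another gene in the RefSeq annotation, and reads of the pair could not be told apart without strand. Such an overlap holds for 15 of the 47 member genes, most of them named with the processing below. The 19S subunit 9, known in yeast and mammals as an assembly chaperone of the 19S base rather than a part of the finished particle, was the best covered. It had 1383 reads and 60.8 FPKM at 10 °C, against 608 reads and 21.3 FPKM at 30 °C, a fold of 2.90 (2.63 to 3.20). Proteasome subunit alpha type-7-1 had 28 reads at 10 °C, against 5 at 30 °C, a fold of 7.14 (2.72 to 23.7). The proteasome inhibitor PI31, a proteasome-binding protein that in flies is needed for full proteasome activity, had 105 reads at 10 °C, against 51 at 30 °C, a fold of 2.62 (1.86 to 3.74).

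The enzymes upstream of the ligases went both ways at 10 °C. Atg7, the E1-type enzyme that activates the ubiquitin-like proteins of autophagy, had 75 reads at 10 °C, against 440 at 30 °C, and was 4.60-fold lower (3.60 to 5.96). Ubiquitin-conjugating enzyme E2 C, the partner of the anaphase-promoting complex in mitosis, had 372 reads and 11.6 FPKM at 10 °C, against 1291 reads and 32.1 FPKM at 30 °C, and was 2.72-fold lower (2.42 to 3.06). UBE2O, a large enzyme that combines E2 and E3 activity, was higher at 10 °C in all 3 contigs of its gene, LOC105198011. Its main contig had 493 reads at 10 °C, against 245 at 30 °C, a fold of 2.57 (2.20 to 3.0). The others had 18 and 33 reads at 10 °C, against 2 and 1 at 30 °C, with ratios of 11.5 (2.75 to 102) and 42.1 (7.04 to 1711), too few reads in the control to fix a size.

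Both cullins listed at 10 °C were higher there. Cullin-2, which in mammals serves the VHL receptor, had 3267 reads and 30.7 FPKM at 10 °C, against 1428 reads and 10.7 FPKM at 30 °C, a fold of 2.92 (2.74 to 3.11). Cullin-5, which in mammals serves SOCS-box receptors, had 63 reads at 10 °C, against 13 at 30 °C, a fold of 6.18 (3.37 to 12.2).

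Of 9 E3 ligases listed at 10 °C, 4 were higher and 5 were lower, beside 56.5% higher among all contigs listed. TM129, whose human relative acts in endoplasmic reticulum-associated degradation, had 197 reads at 10 °C, against 759 at 30 °C, and was 3.02-fold lower (2.58 to 3.55). The contig described as bre1 had 125 reads at 10 °C, against 466 at 30 °C, and was 2.92-fold lower (2.40 to 3.59). RNF144A, a ligase of the RING-between-RING type, had 589 reads at 10 °C, against 246 at 30 °C, a fold of 3.05 (2.63 to 3.56). HECW2-like, named for a HECT ligase with WW domains, had 207 reads at 10 °C, against 76 at 30 °C, a fold of 3.47 (2.66 to 4.58).

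Listerin, which tags unfinished chains on stalled ribosomes, is named after its values were seen. It had 276 reads at 10 °C, against 849 at 30 °C, and was 2.41-fold lower (2.10 to 2.77). Among the thinly covered ligases, RNF14-like was lower at 10 °C, with 13 reads against 51 at 30 °C. MYCBP2-like, named for a very large ligase of neurons, had 21 reads at 10 °C, against 1 at 30 °C.

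The deubiquitinases listed at 10 °C were both higher. Trabid had 390 reads at 10 °C, against 185 at 30 °C, a fold of 2.69 (2.25 to 3.22). Ubiquitin carboxyl-terminal hydrolase 22, named for the histone deubiquitinase of the SAGA complex, had 98 reads at 10 °C, against 26 at 30 °C, a fold of 4.81 (3.09 to 7.72). Ubiquitin-like protein 3, a membrane-anchored relative of ubiquitin, had 727 reads at 10 °C, against 2258 at 30 °C, and was 2.44-fold lower (2.24 to 2.65). The IQ and ubiquitin-like domain protein, known from cilia and flagella in mammals, had 54 reads at 10 °C, against 12 at 30 °C, a fold of 5.74 (3.03 to 11.8).

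**Figure D4:**
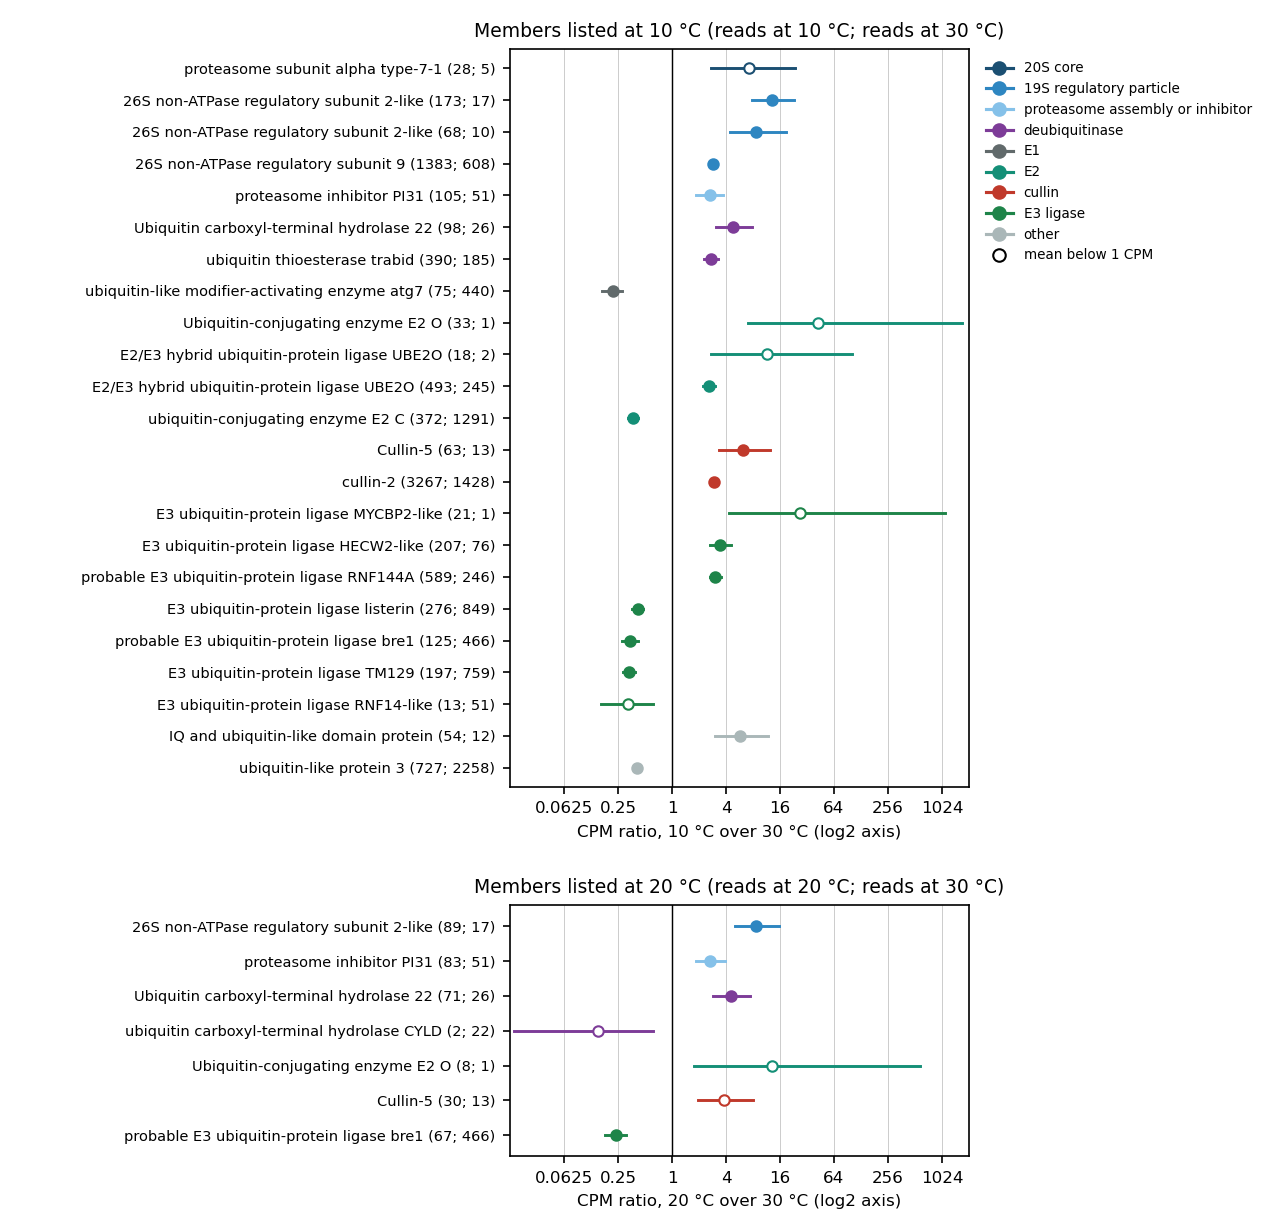
CPM ratio of 10 °C over 30 °C for 23 of the 25 members listed (upper panel) and of 20 °C over 30 °C for 7 of the 8 listed (lower panel), on log2 axes, coloured by role, with the reads of both libraries beside each name. Points are ratios, lines 95% counting intervals, and open circles members averaging below 1 CPM. In the upper panel 16 members lie right of 1 and 7 left of it.

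At 20 °C against 30 °C only 8 members were listed, 5 higher and 3 lower, beside 52.4% higher among all 2953 contigs listed. Of the 4 with a mean of 1 CPM or more, 2 passed 2-fold upwards and 1 downwards, beside 31.4% and 48.3% of all contigs at that level. Their median log2 ratio was 1.12, and that of all contigs at that level was -0.97. With no limit on level the medians were 0.58 for the 8 members and 0.40 for all contigs. By the authors' deposited table, 1 member had an adjusted p under 0.05, beside 7.42% of all contigs listed as higher and 5.11% as lower. The 19S subunit 2-like had 89 reads at 20 °C, against 17 at 30 °C, a fold of 8.64 (5.10 to 15.5) that was 5.47 on the FPKM scale. Ubiquitin carboxyl-terminal hydrolase 22 had 71 reads at 20 °C, against 26 at 30 °C, a fold of 4.50 (2.84 to 7.36) that was 2.91 on the FPKM scale. With the FPKM scaling and the pseudocount its log2 ratio was 0.82, so that it no longer passed 2-fold. PI31 had 83 reads at 20 °C, against 51 at 30 °C, a fold of 2.68 (1.87 to 3.88) that was 1.73 on the FPKM scale.

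The bre1 contig and CYLD were among the members lower at 20 °C. The bre1 contig had 67 reads at 20 °C, against 466 at 30 °C, and was 4.22-fold lower (3.26 to 5.53), or 6.53-fold on the FPKM scale. CYLD, a deubiquitinase known in flies and mammals for signalling to NF-kappaB factors, had 2 reads at 20 °C, against 22 at 30 °C. It averaged below 1 CPM and was 6.67-fold lower, with an interval of 1.64 to 58.5, or 10.2-fold on the FPKM scale.

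Members that were listed at more than 1 temperature allow the temperatures to be set beside each other directly, although each was selected against the same 30 °C library. These ratios depend on the scaling, and both are given. The 19S subunit 2-like contig had 5.76 CPM at 10 °C, 3.84 CPM at 20 °C and 0.444 CPM at 30 °C, and was 1.5-fold higher at 10 °C than at 20 °C (1.16 to 1.96), or 2.30-fold with the FPKM scaling (1.77 to 3.01). Cullin-5 had 2.10 CPM at 10 °C, 1.29 CPM at 20 °C and 0.340 CPM at 30 °C. Its 10 °C level was 1.62-fold that at 20 °C (1.04 to 2.60), or 2.49-fold with the FPKM scaling (1.59 to 3.98). The bre1 contig had 4.16 CPM at 10 °C, 2.89 CPM at 20 °C and 12.2 CPM at 30 °C. Its 10 °C level was 1.44-fold that at 20 °C (1.06 to 1.97), or 2.21-fold with the FPKM scaling (1.63 to 3.02). For ubiquitin carboxyl-terminal hydrolase 22, with 3.26 CPM (10 °C) and 3.06 CPM (20 °C), the interval of the ratio held 1 (0.778 to 1.47), but with the FPKM scaling 10 °C was 1.63-fold higher (1.19 to 2.25). For PI31, with 3.50 CPM (10 °C) and 3.58 CPM (20 °C), it did so too (0.726 to 1.32), and with the FPKM scaling 10 °C was 1.5-fold higher (1.11 to 2.02).

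Trabid and subunit alpha type-7-1 were higher than at 30 °C in both the coldest and the hottest library. Trabid had 13.0 CPM at 10 °C, 4.83 CPM at 30 °C and 12.8 CPM at 40 °C, and the ratio of 40 °C over 10 °C was 0.986 (0.865 to 1.13). With the FPKM scaling that ratio was 1.43 (1.26 to 1.64), above 1. Subunit alpha type-7-1 had 0.933 CPM at 10 °C, 0.131 CPM at 30 °C and 0.876 CPM at 40 °C, a ratio of 0.939 for 40 °C over 10 °C (0.561 to 1.59), or 1.36 with the FPKM scaling (0.815 to 2.31). Among the 10, 30 and 40 °C libraries, both contigs were lowest at 30 °C on either scale. Neither contig was listed at the remaining temperature, so its level there is unknown.

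**Figure D5:**
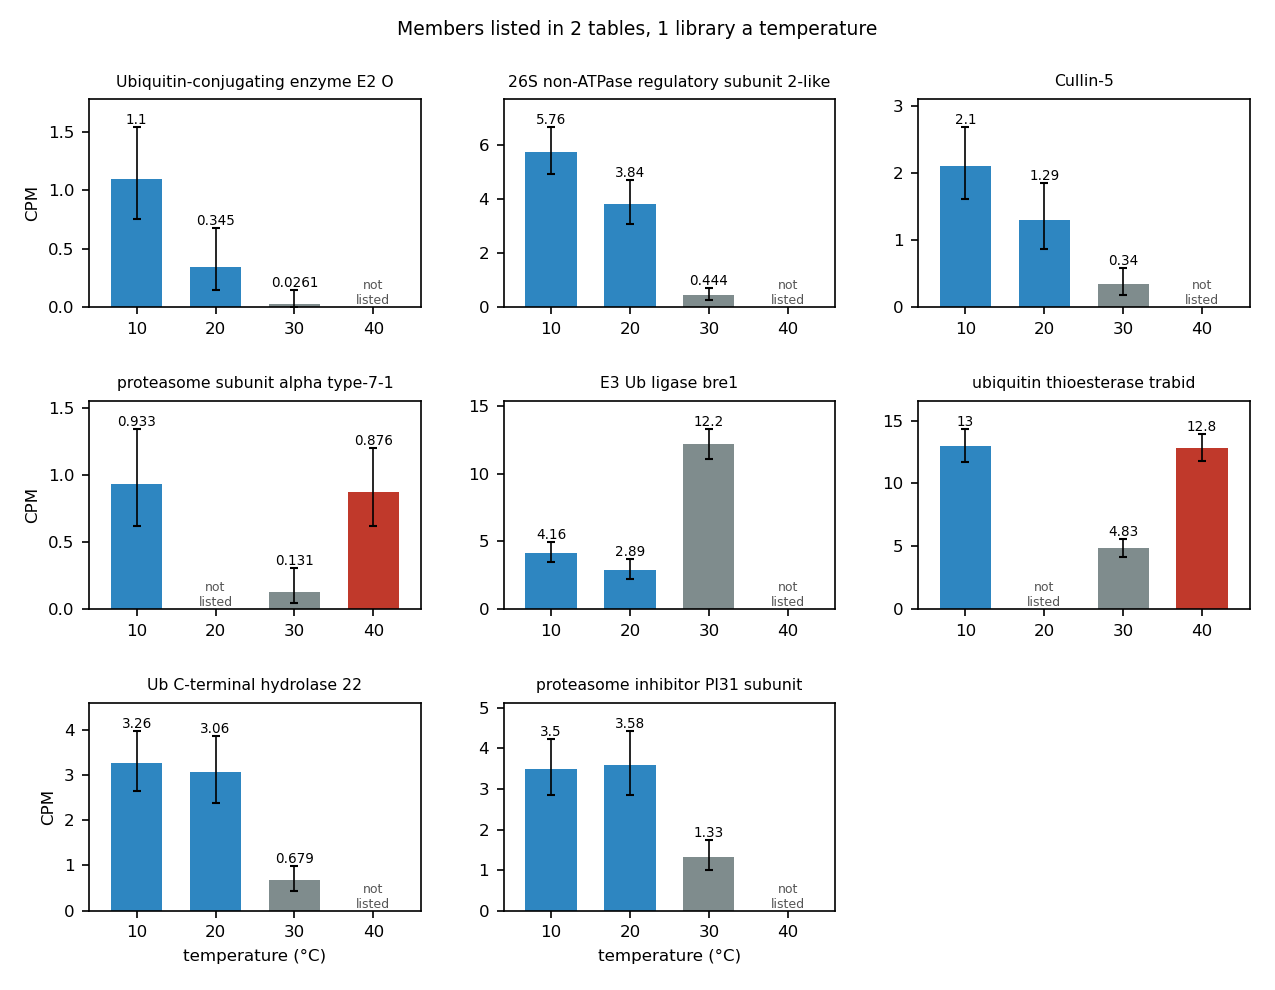
CPM at each temperature, in °C, for 8 of the 9 members listed in 2 of the 3 tables, 1 library a bar, with error bars that are exact 95% Poisson intervals of the reads and cover counting error only. No bar is drawn where a contig is not listed. Trabid and subunit alpha type-7-1 are lowest at 30 °C among their bars.

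Genes of the same pathway that the member rule does not reach were read from a separate list of partners, which found 15 contigs. At 40 °C 9 of its 10 listed contigs were higher and 1 was lower. Of all contigs listed there 46.7% were higher, and of the named ones 59.0%. Sequestosome-1, the p62 receptor that carries ubiquitinated cargo to autophagy, is named for its level after its values were seen. It had 35559 reads and 529 FPKM at 40 °C, against 11969 reads and 142 FPKM at 30 °C, a fold of 2.62 (2.57 to 2.68). BAG2, a co-chaperone that in mammals restrains the ligase CHIP, had 5094 reads at 40 °C, against 1483 at 30 °C, a fold of 3.03 (2.86 to 3.21). The Pfam hit of the BAG2 contig is Ras, while its other annotations bear the name BAG2. The suppressor of G2 allele of SKP1 homolog, SGT1, a co-chaperone that binds the SCF component SKP1 in yeast, had 2537 reads at 40 °C, against 654 at 30 °C, a fold of 3.42 (3.14 to 3.73). The ant transcript match of the SGT1 contig is an uncharacterized gene, LOC105197435, while its KEGG and UniProt matches bear the name. DCAF12, a substrate receptor of cullin-4 ligases in mammals, had 646 reads at 40 °C, against 128 at 30 °C, a fold of 4.45 (3.68 to 5.42). LONRF1, a RING finger protein with a LON domain, had 447 reads at 40 °C, against 96 at 30 °C, a fold of 4.11 (3.29 to 5.18).

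At 10 °C 56.5% of all listed contigs were higher. Of the 6 partner contigs, 4 were higher and 2 were lower, near that share. Subunits of the COP9 signalosome, which takes NEDD8 off cullins, were among the higher ones. COP9 subunit 6 had 91 reads at 10 °C, against 4 at 30 °C, a ratio of 29.0 (10.9 to 109), and COP9 subunit 7 had 697 reads at 10 °C, against 362 at 30 °C, a fold of 2.45 (2.16 to 2.79). Kelch-like protein 1, of a family that links substrates to cullin-3, had 211 reads at 10 °C, against 39 at 30 °C, a fold of 6.90 (4.88 to 9.97). Its ant transcript match is named kelch-like protein 5, so which family member it is remains uncertain. Kelch-like protein 10 had 52 reads at 10 °C, against 196 at 30 °C, and was 2.96-fold lower (2.17 to 4.10). At 20 °C all 3 listed partners, COP9 subunit 6, kelch-like protein 1 and DCAF7, were higher, beside 52.4% of all contigs listed. COP9 subunit 6 had 14 reads at 20 °C, against 4 at 30 °C, and DCAF7 had 13 against 1. Both averaged below 1 CPM, too few reads to fix a size. Kelch-like protein 1 had 115 reads at 20 °C, against 39 at 30 °C, a fold of 4.86 (3.36 to 7.19).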

How the data were processed

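There were 4 whole-body libraries, 1 per temperature. Per the labels' protocols, oligo-dT primed the cDNA. The submitters' processing notes name RSEM, Bowtie 1.1.2, FastQC 0.11.7 and Trimmomatic 0.38. The assembler, the genome build and strandedness are not given in the sources used here. Per the file headers, a deposited table compares 1 temperature with 30 °C. All estimated counts that the authors deposited are whole, so none was rounded. CPM was taken as 2 to the power of each deposited log2 value, minus 1. The FPKM values deposited by the authors imply other library totals, which relative to 30 °C were 0.798 (10 °C), 0.944 (20 °C) and 0.793 (40 °C). Which set reflects sequencing depth is not stated in the sources used here. The fold changes and p-values deposited by the authors have no replicate behind them and are not printed for single genes. From the 40 °C table, 1 line is not analysed here.

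Log2 ratios carry a pseudocount of 1 CPM, and counts of 2-fold changes take contigs averaging at least 1 CPM. Intervals are exact Clopper-Pearson 95% intervals. They cover counting error only, as no molecular identifiers mark the reads. The rule for names takes every listed proteasome subunit and ubiquitin precursor with at least 50 reads in the higher library, and up to 4 members of each other role, and of the partner list, by largest log2 ratio. Genes named outside this rule, among them all contigs under 50 reads, were chosen after their values were seen. Some members are counted but not reported here by name, nor drawn one by one. The members and lists were chosen with earlier results of these data known. Of 47 genes, 43 were found in the annotation of assembly UNIL_Sinv_3.0, where 15 overlap another gene. The alternatives were other pseudocounts, filters, the FPKM scaling, a 4-fold limit, 1 contig per gene and the authors' adjusted p. Formulas were tested on simulated data. Tools were SciPy 1.17.1, numpy 2.4.6, pandas 2.3.3, matplotlib 3.10.9 and Python 3.11.15.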

Additional observations from a re-analysis of the deposited data

How the results depend on the processing

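Of 86 alternative values of the counts and medians, 58 stayed within the limits set for a stable value, 27 moved and 1 reversed. With a pseudocount of 0.1 the median at 10 °C became 1.47. With a pseudocount of 5, 3 members were at least 2-fold higher at 10 °C and 0 at 20 °C, and the medians were 0.42 at 10 °C, 0.47 at 20 °C and 1.20 at 40 °C. A filter of 10 CPM left 4 higher members at 10 °C, 0 higher and 0 lower at 20 °C and 12 higher at 40 °C. It turned the median at 10 °C to -1.19, since 5 of the 9 members left were lower there, and left no median at 20 °C. On the FPKM scale 1 member was at least 2-fold higher at 20 °C, and the median at 40 °C was 2.01. A 4-fold limit left 1 higher and 0 lower at 10 °C, 0 and 0 at 20 °C, and 2 and 0 at 40 °C. The adjusted p under 0.05 in the authors' deposited table kept 1 lower at 10 °C, 1 higher and 0 lower at 20 °C, and 3 higher and 0 lower at 40 °C, with medians of 1.74 at 20 °C and 2.06 at 40 °C. Reading the rule in the KEGG and transcript names too, an alternative chosen after the data were seen, gave 11 lower at 10 °C and 2 lower at 20 °C. A limit of 50 reads in the higher library, also chosen after the data were seen, removed no counted contig. It could therefore move no count or median, and its values are among the 58 that stayed. The cause of these moves was not tested except where fewer contigs were counted. Of 80 values of single contigs, 14 moved with a pseudocount of 0.1, 50 with one of 5 and 26 on the FPKM scale. None reversed, and none could. A pseudocount keeps the sign of a log2 ratio, and the FPKM shifts are smaller than the smallest listed folds. No paired analysis was possible because each temperature has 1 library, and for the same reason no library could be left out. Few reads limit what can be said of the proteasome subunits listed at 40 °C, which had at most 60 each.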

Other observations

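Contigs whose protein description does not match the rule but whose KEGG or transcript name does were listed in numbers of 15 at 10 °C, 6 at 20 °C and 9 at 40 °C. Of these, 10 were higher and 5 lower at 10 °C, 3 higher and 3 lower at 20 °C, and 7 higher and 2 lower at 40 °C. Among all listed contigs, 56.5% were higher at 10 °C, 52.4% at 20 °C and 46.7% at 40 °C. Synoviolin B, a ligase of endoplasmic reticulum-associated degradation, had 560 reads at 40 °C, against 174 at 30 °C, a fold of 2.84. An F-box and leucine-rich repeat protein 16 contig had 1827 reads at 10 °C, against 653 at 30 °C, a fold of 3.57. F-box only protein 9 had a contig with 94 reads at 10 °C, 48 at 20 °C and 12 at 30 °C, and another with 3 reads at 20 °C, against 25 at 30 °C. A contig whose transcript match is proteasome activator complex subunit 4A-like had 6 reads at 10 °C, against 127 at 30 °C, while its protein description is an RNA-directed DNA polymerase.

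Contigs of the same vocabulary without a fire ant match stand outside the members. Proteasome subunit alpha type-4 had 39 reads at 40 °C, against 140 at 30 °C, and was 4.07-fold lower, while its transcript match was to an exocyst gene of another ant. A contig described as Bre1, with a UniProt match to the fly ligase, had 40 reads at 20 °C, against 11 at 30 °C, a fold of 6.0. The bre1 member, whose other annotations differ, was lower at 20 °C. Whether either pair of names marks the same gene was not tested.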
